A study of Homo sapiens with 6 samples.

Results

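A set of 10 genes used as markers of liver cancer stem cells or of fetal programmes reactivated in liver tumours was followed in RNA sequencing of cells labelled Hep3B. The members were chosen by name: THY1, PROM1, CD24, CD44, EPCAM, SALL4, LIN28B, IGF2BP1, IGF2BP2 and IGF2BP3. All 10 were found, each in a single row, among the 17381 rows of the deposited gene table. Hep3B is a human hepatocellular carcinoma line, and the series title describes it as having acquired resistance to sorafenib, a kinase inhibitor given for liver cancer. The labels give 3 libraries titled as STIM1 knockout (STIM1 is the calcium sensor of the endoplasmic reticulum) and 3 wildtype libraries (called control here), with no treatment in either group. The genotype field of the libraries titled as knockout reads STIM1, STIM2 and STIM3 knockout in turn. The guide used, and whether the knockout cells were 1 clone or a pool, are not given in the sources used here.

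The surface markers THY1, PROM1, CD24, CD44 and EPCAM encode proteins by which tumour-initiating cells of the liver are commonly sorted. The other 5 act inside the cell and are active in fetal development, and all but IGF2BP2 are largely quiet in the adult liver. SALL4 is a zinc finger transcription factor of embryonic stem cells, LIN28B is an RNA-binding protein that blocks maturation of the let-7 microRNAs, and the 3 IGF2BP proteins bind and stabilise messenger RNAs. In normal development let-7 rises as LIN28 falls, and messages of LIN28B and of IGF2BP genes are known let-7 targets.

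Because that circuit joins several of these genes, let-7 seed matches were sought in their 3' untranslated regions, and the sequences that pair are shown first. The mature let-7 sequence is from RefSeq (GRCh38.p14), with bases 2 to 8, the seed, in capitals. The first match of each gene is shown, from GENCODE 29 transcripts (GRCh38), with the 7 bases that pair with the seed (CTACCTC, searched on the transcript strand only) in capitals.
hsa-let-7a-5p, MIRLET7A1 copy at chr9:94175962-94175983, + strand: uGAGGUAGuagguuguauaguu
LIN28B, chr6:105078812-105078834, + strand: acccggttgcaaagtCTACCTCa
IGF2BP1, chr17:49051061-49051083, + strand: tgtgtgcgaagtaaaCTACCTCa
IGF2BP2, chr3:185644220-185644242, - strand: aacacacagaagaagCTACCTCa
IGF2BP3, chr7:23311795-23311817, - strand: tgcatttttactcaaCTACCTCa
SALL4, chr20:51782923-51782945, - strand: aaagctttaatttatCTACCTCa
The 5 genes shown are those with a match, and they are the 5 intracellular genes of the set. LIN28B and IGF2BP1 held 4 matches each, and IGF2BP2, IGF2BP3 and SALL4 held 1 each. No match was found in the longest annotated 3' untranslated region of THY1, PROM1, CD24, CD44 or EPCAM. Over 19111 genes, 9.58% had a match. Among genes whose region was 0.8 to 1.25 times as long, 0.194% had as many matches as LIN28B, 0.561% as many as IGF2BP1, and 12.2% at least 1, the number in IGF2BP3. A match describes the sequence only, and no microRNA was measured in these libraries.

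In the deposited table each gene has a mean for each group. The reads of single libraries were worked out from the 15 printed digits of these means, as the processing section explains. Libraries cannot be tied to sample numbers, so within a group they are called A, B and C in order of falling size factor. They held 11925842 to 14951050 reads in the libraries labelled STIM1 knockout and 13707394 to 16223940 in control. Levels below are normalized reads, that is reads divided by the authors' size factor. A log2 change with a standard error (SE) is limma's on log2(normalized reads + 1), fitted over 14770 genes, and is positive where the libraries labelled knockout are higher. "Rose" and "fell" are used where the authors' deposited table lists an adjusted p below 0.05. An SD, SE or p here reflects spread among 3 libraries, and it may be technical, as separate cultures or clones are not mentioned in the labels. Molecular identifiers are not mentioned in the labels, so intervals on read counts cover counting error only.

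The labels were checked first. STIM1 had 1454, 1439 and 1422 normalized reads in the libraries labelled STIM1 knockout, against 1047, 972 and 836 in control. Its log2 change was 0.60 with an SE of 0.06 (limma adjusted p = 8.84e-07). The transcript was thus higher in the libraries labelled knockout, and a gene total does not show whether the message was edited. Hep3B cells are known to make alpha-fetoprotein and albumin. Each of their genes, AFP and ALB, had 1 read over all 6 libraries, in library C labelled knockout. The hepatocyte list of 13 genes gave 10 in the table, of which 2 (HNF4A and CEBPA, both transcription factors) rose, 1 fell and 7 did not pass. Its summed level was 1445 to 1619 in the libraries labelled knockout and 526 to 596 in control. These 2 factors made up most of that sum, and the cells are called here by their label only.

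Of the 10 markers, 3 rose and 5 fell in the libraries labelled STIM1 knockout, while PROM1 and LIN28B, the 2 with under 5 reads on average, did not pass. Of all genes listed, 54.5% passed the same threshold, 25.7% higher and 28.8% lower. The 8 markers that averaged 100 or more all passed, against 75.3% of genes that abundant. With most such genes called, passing says little about these markers in particular. Limma called the same 8 of the 9 markers it could fit, and 69.9% of all fitted genes. The same 8 markers had no overlap between the groups, as did 81.1% of genes at that level and 65.2% of all genes. A log2 change of at least 1 in size as well was found for 4 markers (THY1, CD44, SALL4 and EPCAM), against 14.3% of genes averaging 100 or more and 17.1% of all genes. In bulk RNA, fewer cells carrying a marker and less of its RNA per cell cannot be told apart.

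**Figure D1:**
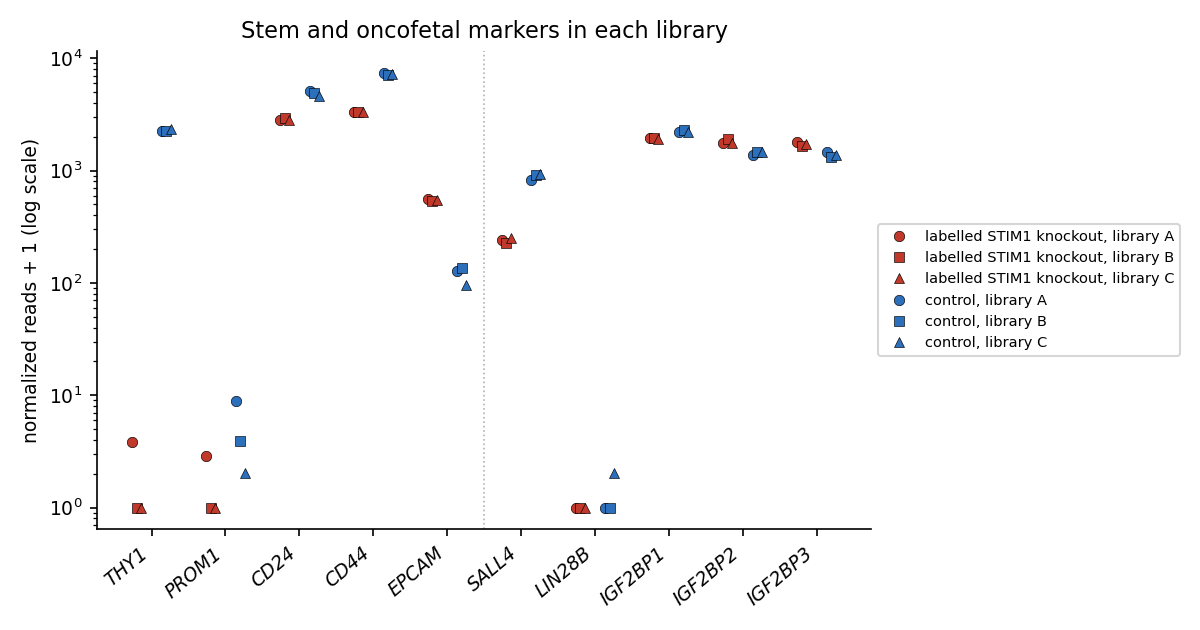
Normalized reads plus 1 (log scale) of the 10 markers in each library. Red symbols are the 3 libraries labelled STIM1 knockout and blue symbols the 3 control libraries, with a circle, square and triangle for libraries A, B and C. The dotted line separates the 5 surface markers from the 5 intracellular ones. THY1 lies at 2259 to 2334 in control and at 0 to 2.86 in the libraries labelled knockout, and LIN28B is at 0 reads in all libraries but control library C.

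THY1 was all but lost. This gene (chromosome 11, 119415476 to 119424985, GRCh38, minus strand) encodes CD90, a glycolipid-anchored surface protein that marks a class of liver tumour-initiating cells and, in normal tissue, fibroblasts and neurons. It had 2.86, 0 and 0 normalized reads in libraries A, B and C labelled knockout, against 2259, 2261 and 2334 in control. Only library A among those labelled knockout held any read, and every control library was about as high as the next. In all, 3 reads in the libraries labelled knockout stood against 7160 in control, a level 2217-fold lower in the libraries labelled knockout, with a 95% counting interval of 758 to 10754. The limma log2 change was −10.51 (SE 0.38, limma adjusted p = 4.33e-12), with only 4 of the 14770 fitted genes lower, and its size depends on the pseudocount. Over 45 genes with at least 300 in control and at most 3 in the libraries labelled knockout, THY1 among them, 107 reads were left. Of these, 43.0% lay in library A, 40.2% in B and 16.8% in C, which held 36.1%, 35.1% and 28.8% of all reads of the group. Over these genes library A did not hold the reads alone as it did for THY1, which had only 3.

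THY1 is also a fibroblast marker, so that list is given beside it. Of 9 fibroblast and stellate cell genes, 1 rose and 3 fell, or 44.4% called, against 54.5% of all genes. The summed level was 3186 to 3745 in the libraries labelled knockout and 2056 to 2239 in control. DCN, a matrix proteoglycan, averaged 3.95 ± 3.45 in the libraries labelled knockout and 107 ± 27.6 in control (SD, n = 3), and COL1A1, a fibrillar collagen, averaged 3111 ± 158 in the libraries labelled knockout and 1485 ± 19.3 in control. THY1 also shares 632 exonic bases with AP003396.5 on the opposite strand. COL1A1 made up most of that sum, and the median log2 change of the 8 list genes that could be fitted was −1.31, opposite to the sum. The receptor gene PDGFRA was at 3 reads or fewer over all 6 libraries. The part of such cells in the THY1 result was not tested.

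EPCAM moved the other way. Its product (chromosome 2, 47369311 to 47387020, plus strand) is an epithelial adhesion protein of hepatic progenitors that is shut off in mature hepatocytes. EPCAM had 557, 532 and 543 normalized reads in libraries A, B and C labelled knockout, against 128, 136 and 94.4 in control. Every library labelled knockout was more than 3 times the highest control library. The limma log2 change was 2.20 (SE 0.12, limma adjusted p = 3.67e-10), and 147 fitted genes had a higher log2 change. The 3 control libraries were the least even among the markers that passed, with a coefficient of variation of 18.5%, set by library C.

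CD44 and CD24, the most abundant of the set, both fell. CD44 (chromosome 11, 35139168 to 35232402, plus strand) is the receptor for the matrix sugar hyaluronan. It had 3292, 3335 and 3298 normalized reads in the libraries labelled knockout, against 7465, 7046 and 7207 in control. The libraries within each group lay close together and the groups were far apart, and the log2 change was −1.13 (SE 0.03, limma adjusted p = 9.43e-14). CD24 (chromosome 6, 106969831 to 106976855, minus strand) is a small mucin-like protein that shields cells from macrophages. It had 2833, 2922 and 2811 normalized reads in the libraries labelled knockout, against 5135, 4855 and 4654 in control. The lowest control library was well above the highest one labelled knockout, and the log2 change was −0.77 (SE 0.04, limma adjusted p = 7.29e-11). CD24 has near-identical pseudogene copies, so its reads could be divided among them and its level is uncertain. Antisense genes share 63 exonic bases with CD44, 67 with LIN28B and 37 with IGF2BP1. A gene total also does not separate the standard and variant splice forms of CD44.

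PROM1, the gene of CD133 (chromosome 4, 15968226 to 16084059, minus strand), is a widely used stem cell marker in liver cancer, and it was barely detected. It had 1.91, 0 and 0 normalized reads in libraries A, B and C labelled knockout, against 7.93, 2.89 and 1.04 in control. The groups overlapped, and 2 reads in the libraries labelled knockout stood against 13 in control, a level 6.04-fold lower with a 95% counting interval of 1.37 to 55.1. The adjusted p was 0.234 in the authors' deposited table and 0.0632 with limma. The limma value passed without library A labelled knockout (adjusted p = 0.0316), without control library C (0.0258) and with no filter on low values (0.0403), within a range of 0.0258 to 0.250 over its alternatives. PROM1 shares 82 exonic bases with FGFBP2 on the same strand, which had 0 reads in the libraries labelled knockout and 1 in control.

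**Figure D2:**
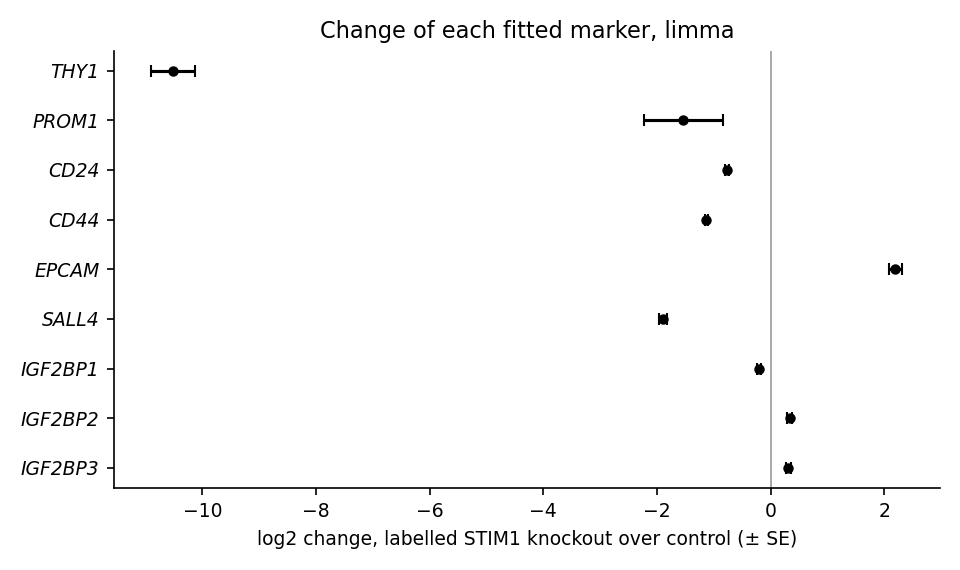
Log2 change of the 9 markers that could be fitted, libraries labelled STIM1 knockout over control, with bars of 1 SE from limma (n = 3 libraries per group). THY1 lies at −10.51 and EPCAM at 2.20, while the 3 IGF2BP genes lie within 0.34 of 0.

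Among the intracellular factors, SALL4 changed most. The gene (chromosome 20, 51782331 to 51802521, minus strand) had 238, 225 and 250 normalized reads in the libraries labelled knockout, against 825, 918 and 928 in control. All 3 libraries labelled knockout lay far below the lowest control library. The log2 change was −1.90 (SE 0.07, limma adjusted p = 5.48e-12). SALL4 represses its targets through the NuRD complex, a remodeller that joins a helicase to histone deacetylases. Of 18 measured genes of the SALL family, NuRD and linked repressors, 4 rose, 9 fell and 5 did not pass, or 72.2% called, against 54.5% of all genes and 75.3% of genes averaging 100 or more. The median log2 change was −0.19, against −0.04 over all fitted genes. MBD3, a structural subunit, fell to 381 ± 31.9 in the libraries labelled knockout, against 1113 ± 26.2 in control (SD, n = 3). The helicase gene CHD5 averaged 5.06 ± 2.38 in the libraries labelled knockout and 18.6 ± 2.75 in control, and fell. RBBP4, a histone chaperone, averaged 1454 ± 38.0 in the libraries labelled knockout against 2043 ± 52.0 in control, and MTA2, a scaffold subunit, 1811 ± 80.4 in the libraries labelled knockout against 2532 ± 56.1 in control.

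LIN28B was not expressed at a level these libraries could measure. The gene (chromosome 6, 104936999 to 105083332, plus strand) had 0 reads in all 3 libraries labelled knockout and 1 read, in library C, in control. Its relative LIN28A had 1 read each in libraries A and B labelled knockout and 0 in control. Both groups are at or under a floor of 3 reads, so no fold is given for either gene.

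The 3 IGF2BP genes were expressed in both groups and changed little, in different directions. IGF2BP1 (chromosome 17, 48997385 to 49056145, plus strand) protects messages such as MYC from decay. It had 1936, 1949 and 1891 normalized reads in the libraries labelled knockout, against 2191, 2299 and 2196 in control. The fall was small beside the gaps above, yet the groups did not overlap, and the log2 change was −0.21 (SE 0.04, limma adjusted p = 8.98e-05). IGF2BP2 (chromosome 3, 185643130 to 185825046, minus strand), the family member that persists in adult tissue, had 1753, 1901 and 1759 normalized reads in the libraries labelled knockout, against 1372, 1449 and 1456 in control. It rose by 0.34 on the log2 scale (SE 0.04, limma adjusted p = 5.86e-06). IGF2BP3 (chromosome 7, 23310209 to 23470674, minus strand), an oncofetal protein of aggressive tumours, had 1778, 1648 and 1718 normalized reads in the libraries labelled knockout, against 1453, 1322 and 1367 in control. It rose by 0.31 on the log2 scale (SE 0.05, limma adjusted p = 1.93e-05). IGF2BP3 shares 1521 exonic bases with MALSU1 on the opposite strand, and strand-specific counting is not stated, so its total is uncertain. MALSU1 itself averaged 623 ± 5.09 in the libraries labelled knockout and 618 ± 16.5 in control (SD, n = 3).

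Per kilobase of the listed gene model, the family summed to 763 ± 8.78 normalized reads in the libraries labelled knockout and 685 ± 1.54 in control (SD, n = 3). IGF2BP1 made up 27.7 ± 0.127% of that sum in the libraries labelled knockout and 35.8 ± 0.905% in control. IGF2BP2 made up 35.3 ± 1.44% in the libraries labelled knockout and 31.1 ± 1.01% in control. IGF2BP3 made up 36.9 ± 1.52% in the libraries labelled knockout and 33.1 ± 1.63% in control. IGF2BP1 was thus the lowest of the family in the libraries labelled knockout and the highest in control, in every library. In control library A the gap was narrow, with IGF2BP1 at 241 and IGF2BP3 at 239 per kilobase. The order also depends on the listed gene lengths and on the uncertain IGF2BP3 total. These shares are a description, with no test over the family.

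**Figure D3:**
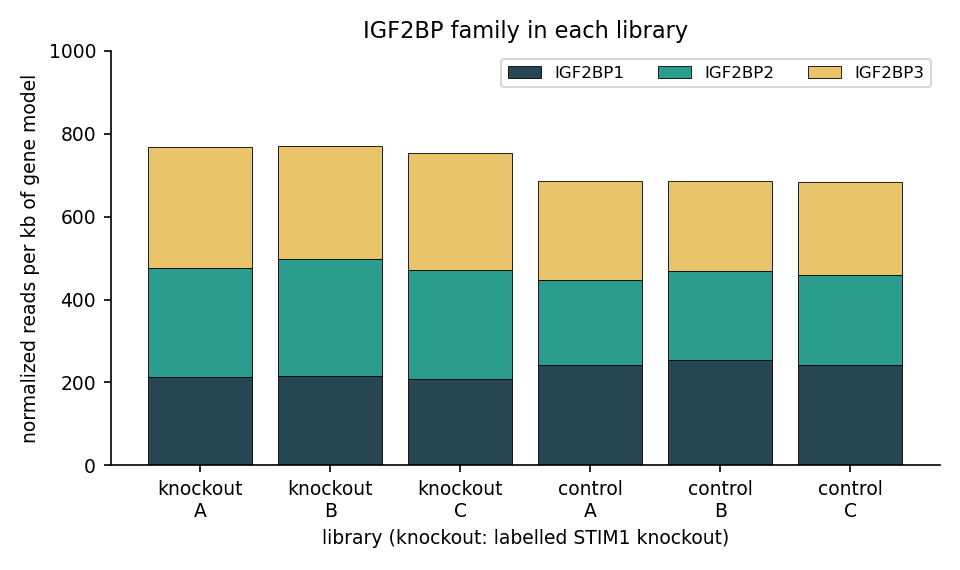
Normalized reads per kilobase of gene model for IGF2BP1, IGF2BP2 and IGF2BP3, stacked, in the 3 libraries labelled STIM1 knockout and the 3 control libraries. The stacks reach 763 ± 8.78 on average in the libraries labelled knockout and 685 ± 1.54 in control, with a smaller IGF2BP1 segment in the libraries labelled knockout.

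On the same per-kilobase scale the order of the whole set differed between groups. In the libraries labelled knockout it ran from CD24 at 805 ± 16.5 and CD44 at 469 ± 3.30 through EPCAM at 352 ± 7.82 to IGF2BP3 at 282 ± 10.7, IGF2BP2 at 270 ± 12.5, IGF2BP1 at 212 ± 3.37, SALL4 at 36.6 ± 1.93, and then THY1, PROM1 and LIN28B near 0. In control it ran from CD24 at 1376 ± 68.0 and CD44 at 1026 ± 29.9 through THY1 at 405 ± 7.57 to IGF2BP1 at 245 ± 6.71, IGF2BP3 at 227 ± 10.9, IGF2BP2 at 213 ± 6.93, SALL4 at 137 ± 8.79, EPCAM at 77.1 ± 14.2, PROM1 and LIN28B (SD, n = 3). IGF2BP3 and IGF2BP2, neighbours in both orders, had overlapping ranges in each group, as did THY1, PROM1 and LIN28B in the libraries labelled knockout. CD24 was higher than 94.2% of genes in the libraries labelled knockout and 97.0% in control. EPCAM was higher than 84.6% of genes in the libraries labelled knockout and 54.6% in control.

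**Figure D4:**
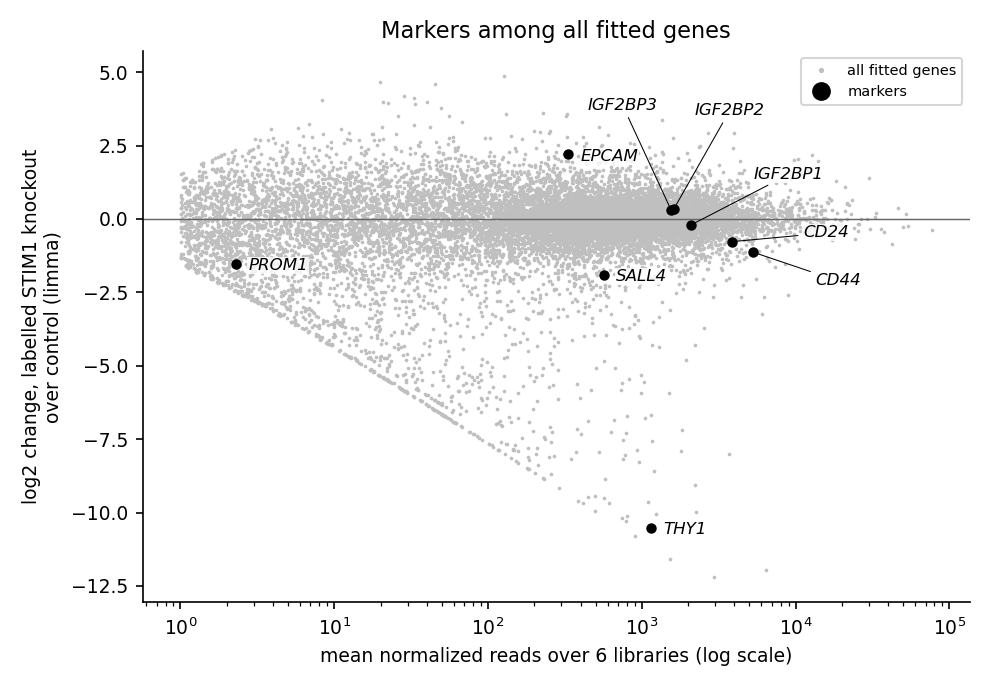
Log2 change (limma, libraries labelled STIM1 knockout over control) against mean normalized reads over the 6 libraries (log scale) for all 14770 fitted genes in grey, with 9 markers in black. THY1 stands at the lower edge of the cloud with 4 genes below it, EPCAM above the densest band, and the IGF2BP genes within the central band.

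Genes around the let-7 circuit were described from a list of 21, of which 19 were in the table. Of these, 6 rose, 5 fell and 8 did not pass, or 57.9% called, close to the 54.5% of all genes. The median log2 change was 0.13 over the 14 that could be fitted, against −0.04 over all fitted genes. Genes of microRNA production and of let-7 precursor turnover moved both ways. DROSHA, the nuclear processing enzyme, averaged 2898 ± 9.69 in the libraries labelled knockout and 3261 ± 56.0 in control and fell, as did TUT4 and TUT7, which tail let-7 precursors, while DICER1, the cytoplasmic enzyme, rose. These 4 were named after their values were seen. DGCR8, the partner of DROSHA, rose and averaged 962 ± 16.5 in the libraries labelled knockout and 628 ± 29.2 in control. XPO5, which exports precursors from the nucleus, also rose and averaged 2536 ± 90.5 in the libraries labelled knockout and 1751 ± 41.8 in control, and DIS3L2, the nuclease that destroys tailed let-7 precursors, rose to 513 ± 42.7 in the libraries labelled knockout and 375 ± 18.5 in control. HMGA2, a chromatin protein and classical let-7 target, fell to 92.5 ± 5.36 in the libraries labelled knockout, against 136 ± 4.90 in control (SD, n = 3). AFP, LIN28A and MYCN had 3 reads or fewer over all 6 libraries. Over the fitted genes with a 3' untranslated region to search, 1534 with a let-7 match had a median log2 change of 0.03 and 12763 without had −0.05.

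Partners of the IGF2BP proteins in RNA binding and in the m6A mark that they read included 7 of 25 that rose and 9 that fell, or 64.0% called, against 54.5% of all genes and 75.3% of genes averaging 100 or more, with a median log2 change of 0.01. The demethylase FTO averaged 609 ± 16.9 in the libraries labelled knockout and 1011 ± 46.6 in control, and the writer complex subunit ZC3H13 796 ± 9.49 in the libraries labelled knockout and 1267 ± 45.9 in control. ELAVL1, the stabilising protein HuR, averaged 832 ± 27.4 in the libraries labelled knockout and 1319 ± 59.8 in control. These 3 fell, while CBLL1, another writer subunit, rose to 1112 ± 97.8 in the libraries labelled knockout, against 730 ± 13.7 in control (SD, n = 3).

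Genes that bind, cut or splice the surface markers changed in 24 of 30 cases, 9 up and 15 down, or 80.0% called. The share was 54.5% over all genes and 75.3% over genes averaging 100 or more, and the median log2 change of the list was −0.20. The list also holds scarce genes, so its share and the 75.3% are not at like abundance. Of the 6 that did not pass, only ADAM17, named after its values were seen, averaged 100 or more. HAS2, a synthase of the CD44 ligand hyaluronan, had 0 reads in the libraries labelled knockout and averaged 23.6 ± 2.89 in control, at least 22.9-fold lower when the group is set at 3 reads. HYAL1, a hyaluronidase named after its values were seen, averaged 3011 ± 102 in the libraries labelled knockout and 1143 ± 45.2 in control and rose. ESRP1, a splicing factor that keeps variant exons in CD44, had 1 read in the libraries labelled knockout and 107 in control, 99.4-fold lower with a 95% counting interval of 17.5 to 3963. Its paralogue ESRP2, likewise named after its values were seen, rose to 1064 ± 5.75 in the libraries labelled knockout, against 317 ± 35.0 in control. ITGB3, a subunit of an integrin that binds THY1, averaged 10.3 ± 5.0 in the libraries labelled knockout and 81.1 ± 8.64 in control and fell. MMP14, a membrane protease that cleaves CD44, averaged 8.29 ± 5.41 in the libraries labelled knockout and 55.3 ± 6.25 in control and fell (SD, n = 3).

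Other markers used for liver cancer stem and progenitor cells moved both ways. Of 23 measured, 3 rose, 6 fell and 14 did not pass, or 39.1% called, against 54.5% of all genes, with a median log2 change of −0.27 over 17 that could be fitted. The drug pump gene ABCG2 averaged 24.7 ± 10.9 in the libraries labelled knockout and 165 ± 15.8 in control, and the transcription factor gene SOX4 177 ± 13.5 in the libraries labelled knockout and 690 ± 25.5 in control, and both fell. CACNA2D1, a calcium channel subunit also used to sort tumour-initiating cells, rose to 896 ± 45.6 in the libraries labelled knockout, against 190 ± 6.54 in control (SD, n = 3). SOX2, NANOG, ALDH1A1, KIT and CD34 had 3 reads or fewer over all 6 libraries. POU5F1 shares its name over several rows and is uncertain.

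**Figure D5:**
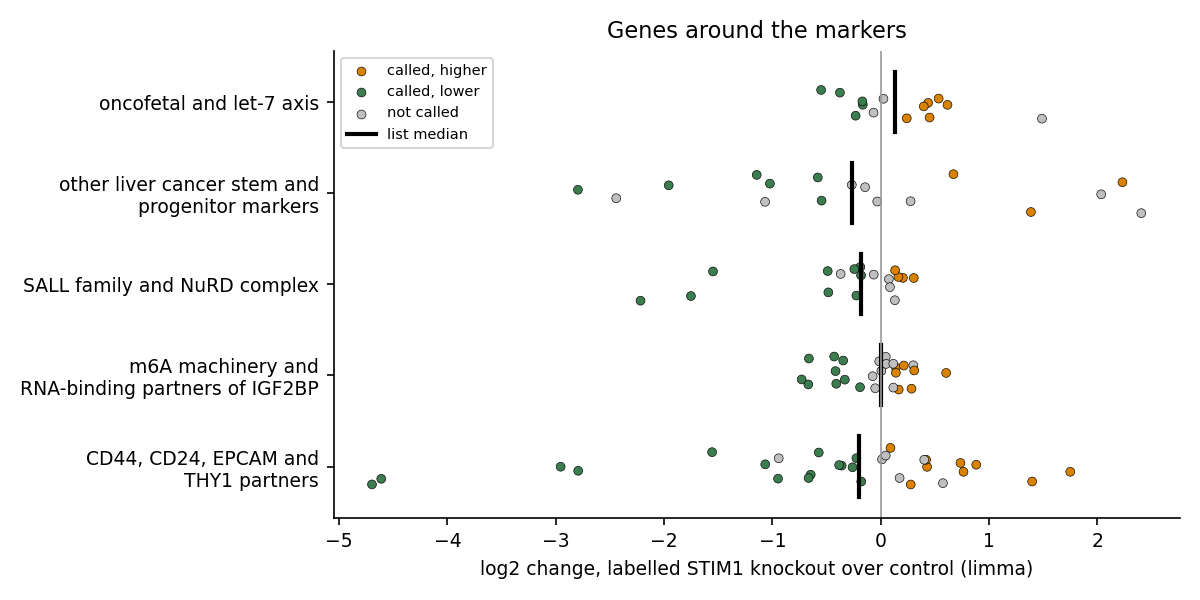
Log2 change (limma, libraries labelled STIM1 knockout over control) of genes in 5 lists around the markers. Each point is a gene, orange where called higher, green where called lower and grey where not called in the authors' table, and the black bar is the list median. Medians run from −0.27 for other stem and progenitor markers to 0.13 for the let-7 list.

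Markers of other cell types were read beside these results. The share called was 42.9% for the biliary list, 14.3% for the endothelial and 42.9% for the blood and immune list, against 54.5% of all genes. Of 7 biliary genes, 2 rose, 1 fell and 4 did not pass, with a summed level of 3336 to 3507 in the libraries labelled knockout and 5235 to 5503 in control, most of it KRT7 and ANXA4, and CFTR at 3 reads or fewer in all. Of 7 endothelial genes, 1 fell, and the sum was 22.6 to 33.2 in the libraries labelled knockout and 147 to 174 in control. The gene that fell was PECAM1, with 3.01 ± 3.69 in the libraries labelled knockout and 123 ± 15.5 in control (SD, n = 3). Of 7 blood and immune genes, 3 fell, and the sum was 87.9 to 109 in the libraries labelled knockout and 984 to 1083 in control, most of it CD68. PTPRC, a marker of leukocytes, and CD3E, a marker of T cells, had 3 reads or fewer over all 6 libraries.

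Position was a property the choice of genes did not use, so the 5 nearest genes on each side averaging 10 or more were read. Over all genes, 25.7% rose and 28.8% fell, and 75.3% of those averaging 100 or more passed in either direction. Among genes averaging 10 or more, limma called 9708 of 12668. The counts below are a description, with no test over neighbourhoods. Around EPCAM, from CRIPT to FOXN2, 1 neighbour rose and 4 fell, with log2 changes between −0.41 and 0.30, so its own rise of 2.20 lay outside its neighbourhood. Around CD44, from NAT10 to PRR5L, 6 rose and 1 fell, between −0.77 and 1.63, and the CD44 change of −1.13 lay below all 10. Around THY1, from PDZD3 to TLCD5, 3 rose and 6 fell, with a median of −0.68, and OAF was the lowest at −3.94. Around SALL4, from DPM1 to PFDN4, 3 rose and 4 fell, with KCNG1, a potassium channel gene, at −8.53. Around LIN28B, from USP45 to CRYBG1, 1 rose and 8 fell, with a median of −0.77. Around CD24, from PRDM1 to SEC63, 2 rose and 8 fell, with a median of −0.34 and CRYBG1 at −5.07. PRDM1, ATG5 and CRYBG1 are neighbours of both LIN28B and CD24, so the falls around these 2 markers are partly the same genes. OAF, KCNG1, CRYBG1 and ATG5 were named after their values were seen. Around IGF2BP1, from TTLL6 to SPOP, 7 rose and 1 fell, with a median of 0.27. Around IGF2BP3, 4 rose and 2 fell, with a median of 0.27, around IGF2BP2, 3 rose and 3 fell, with a median of 0.02, and around PROM1, 3 rose and 5 fell, with a median of −0.09.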

How the data were processed

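RNA from 6 libraries, 3 per group, was sequenced after a SMARTER mRNA-Seq preparation from 1 µg of total RNA, per the labels' protocols. Per the file headers, the authors averaged the signal, reads divided by size factors, over each group. They deposited the fold ratio of these means and its log2 value beside them. A raw p-value and an adjusted one come from the authors' own test. The listed gene length is used only for levels per kilobase. The submitters' processing notes name GRCm38 and mm10, which are mouse builds. The chromosome accessions are of human GRCh38, and all 10 markers lay within 827 bases of RefSeq GRCh38.p14 at both ends. The aligner and the counting tool are not given in the sources used here.

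Each mean combines 3 whole read numbers over their size factors, and its 15 digits were used to find those numbers. Within the range searched, a single solution was found for 17380 of 17381 rows. EEF1A1 lay above the level searched and is in no fit. The search demands that means match, and they did within 8.00e-11. Size factors computed anew from the reads came within 0.00407%. Above a mean of 60, libraries within 15% and then 50% of the mean were sought first, which favours a small SD. The search stopped at the first range that held a solution, so solutions outside that range were not sought. Rows that share a name were summed. In 2830 simulated means all reads were recovered right. These were drawn around the recovered reads and left out the highest means. They therefore say little about the highest means or about abundant genes whose libraries lie far apart. For limma 3.58.1 (R 4.3.3, trend, Benjamini-Hochberg adjustment over all fitted genes) the pseudocount was 1, and a gene needed an average of 1 or more. On simulated data limma called 96.0% of 100 genes changed 2-fold, 90.0% of 100 changed 1.5-fold and 0.0825% of 14552 unchanged genes. The simulation gave all genes the same spread and changed none of the scarcest genes. In the real libraries 69.9% of fitted genes were called, so the share of unchanged genes called there is not given by it. The named genes are the 10 markers, STIM1, and from each list up to 4 called genes with the largest log2 change in the authors' table and a mean of at least 5. A gene that this rule names is not reported here. Others are said to be named after their values were seen, and genes of the marker lists are named as values beside a result. Members and lists were chosen with earlier results of these data known. The median log2 change of all fitted genes was −0.04. No count model was fitted here, since the deposit itself holds no counts per sample. The recovered reads were used in limma and, as an alternative, through voom. The other deposited table holds the same columns again and was left aside.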

Additional observations from a re-analysis of the deposited data

How the results depend on the processing

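The count of 8 markers called, 3 higher and 5 lower, was the same at an adjusted p under 0.01, with limma, with voom values, with genes of a mean of at least 10 adjusted again, and with rows on the main chromosome only. Leaving out each library in turn under limma gave 8 to 9, the ninth being PROM1. Changes of the other 8 fitted markers kept their direction and their side of the threshold under all 14 alternatives each, which were 2 other pseudocounts, 2 filters, scaling by total reads or by the upper quartile, voom, main chromosome rows and 6 libraries left out. THY1 ranged from −11.24 to −8.62, EPCAM from 2.04 to 2.30 and IGF2BP1 from −0.22 to −0.19. Over those alternatives the median of all fitted genes lay between −0.05 and −0.02. Each list's total of called genes stayed within 1.5 times under the 3 alternatives run for lists. The part that rose moved further in 2 lists, to 2 from 4 for the SALL and NuRD list at an adjusted p under 0.01, and to 5 from 3 for other stem and progenitor markers with limma. No paired analysis was possible because recovered libraries carry no sample number. Depth limits PROM1, whose call rests on few reads, and no change of LIN28B was detectable at this depth.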
